A study of Mus musculus with 6 samples.

Results

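The genes described here are 10 receptor tyrosine kinases that sorafenib is known to bind or that belong to the same receptor families: Flt1, Kdr, Kit, Flt3, Csf1r, Pdgfra, Pdgfrb, Fgfr1, Ret and Ddr1. They were chosen by a list of gene symbols, and each of the 10 had a row among the 21233 genes of the count table. The samples were mouse Th9 cells, a class of CD4+ helper T cell defined by its secretion of interleukin 9. They formed 2 groups, Th9 cells treated with sorafenib (n = 3 libraries) and Th9 cells that were not (n = 3 libraries), called control here. Sorafenib is a small-molecule kinase inhibitor that acts on RAF kinases and on several receptor tyrosine kinases. The labels gave no mouse strain, age, dose, treatment time or vehicle, and did not say whether replicates came from separate mice or cultures, so the p-values measure the spread between these libraries, which may be technical.

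A receptor tyrosine kinase spans the plasma membrane, binds a ligand outside the cell and carries a kinase domain inside it. Ligand binding pairs receptor molecules, which phosphorylate each other on tyrosines, and adaptor proteins that dock there pass the signal to RAS, RAF and ERK, to PI3-kinase and to phospholipase C gamma. Sorafenib occupies the ATP pocket of such kinases and blocks the activity of the protein. The data here are mRNA levels and hold no measure of kinase activity. Kit, Flt3, Csf1r, Pdgfra and Pdgfrb form one structural family, best known from blood progenitors, mast cells, dendritic cells, macrophages and connective tissue cells. Flt1 and Kdr are the receptors for vascular endothelial growth factor on blood vessels, Fgfr1 binds fibroblast growth factors, Ret is the signalling chain for the glial cell line-derived factors, and Ddr1 is a receptor for collagen.

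The libraries held 36981476 to 38126521 counts each. A count of 3, the floor used here for a gene at 0, corresponded to 0.0766 to 0.0871 CPM, which is the count scaled by the library total and a TMM factor. One library stood apart from the rest: control replicate 2 had a TMM factor of 0.922, against 0.993 to 1.03 in the others, and its 100 most abundant genes took 31.8% of its counts, against 27.3% to 28.6% in the others. The receptor results that turn on it are given with and without it. The label of the cells was checked against 14 T cell and Th9 genes, each of which was detected and passed the filter on low counts. Il9 itself averaged 266 ± 15.4 CPM in sorafenib-treated cells and 192 ± 18.8 CPM in control cells (SD, n = 3 each), and the 14 genes summed to 4202 to 4321 CPM with sorafenib and 4724 to 4884 CPM in controls. Of the 14, 2 were higher and 6 lower with sorafenib by edgeR's quasi-likelihood test at an adjusted p under 0.05. That is 57.1% of the 14, against 17.9% of all tested genes.

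Per unit of gene length, Kit and Ddr1 were the main members in these cells. On the FPKM scale, which divides a count by the library total and the gene length, Kit averaged 3.49 over the 6 libraries (range 3.19 to 3.84) and Ddr1 averaged 2.83 (2.59 to 3.14). Fgfr1 followed at a mean of 0.844 FPKM (0.616 to 1.09) and Flt3 at 0.608 FPKM (0.282 to 1.03). Kdr averaged 0.0896 FPKM (0.0369 to 0.175), and the other 5 were lower still, in the order Pdgfrb at 0.0364, Ret at 0.0357, Flt1 at 0.0127, Csf1r at 0.00339 and Pdgfra at 0.00240 FPKM. In this order the ranges over libraries were separate for Kit against Ddr1, Ddr1 against Fgfr1 and Flt3 against Kdr. Every other pair of neighbours overlapped in range. Kit stood above 63.6% of the 21233 genes by mean FPKM and Ddr1 above 61.4%, whereas Csf1r stood above 9.56% and Pdgfra above 6.94%. Kit and Ddr1 together made up 77.7% to 80.1% of the summed FPKM of the 10 receptors in sorafenib-treated cells and 79.1% to 80.8% in control cells. The sum itself was 7.73, 8.13 and 8.30 FPKM in the sorafenib libraries and 7.90, 7.62 and 8.07 FPKM in the control libraries, so the totals of the groups overlapped.

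**Figure D1:**
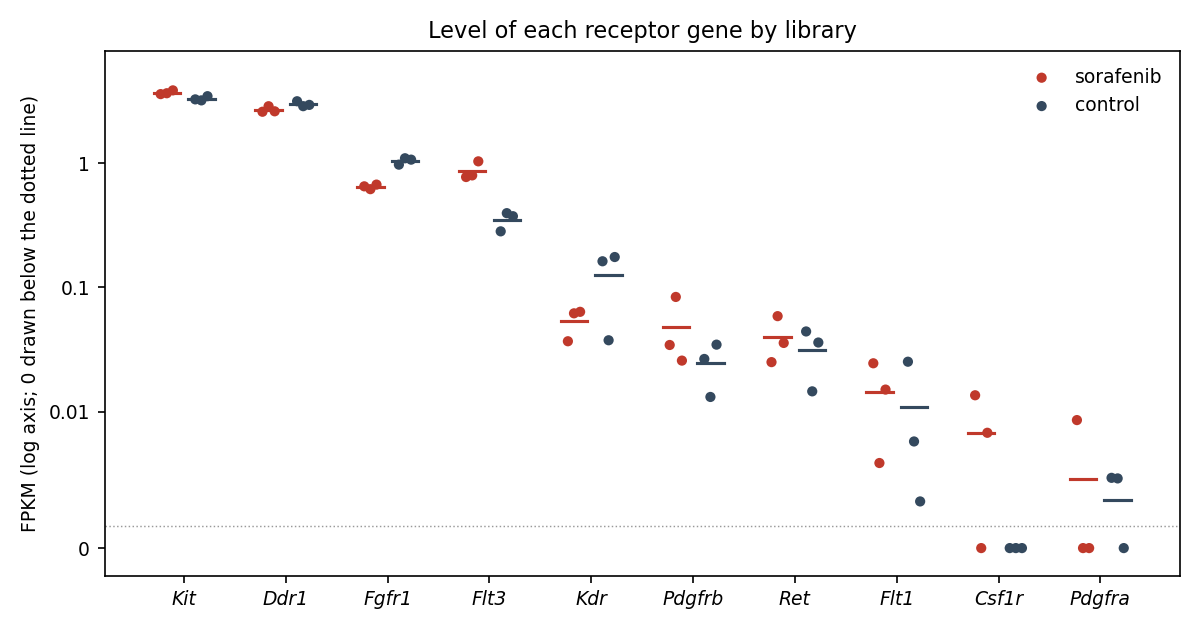
Level of each of the 10 receptors in FPKM on a log axis, 1 point per library and a bar at each group's mean, with sorafenib left of control and values of 0 drawn below the dotted line. Flt3 sits higher in all 3 sorafenib libraries (0.772 to 1.03 FPKM, against 0.282 to 0.395), Fgfr1 sits lower (0.616 to 0.671 FPKM, against 0.971 to 1.09), and the Kdr points of the groups overlap.

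Of the 10 receptors, 5 passed the filter on low counts and were tested: Kit, Ddr1, Fgfr1, Flt3 and Kdr. By edgeR's quasi-likelihood test with Benjamini-Hochberg adjustment over all 13255 tested genes, Flt3 rose and Fgfr1 fell, and the other 3 did not pass. Across the transcriptome 17.9% of tested genes passed the same threshold, 8.51% higher and 9.43% lower with sorafenib. With 2 of 5 called and 1 in each direction, the count describes these genes and shows no common direction. The median log2 fold change of the 5 was -0.23, against -0.01 over all tested genes. In bulk RNA, fewer cells of a type and less RNA per cell cannot be told apart, and this holds for each difference below.

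Flt3, the receptor for Flt3 ligand on dendritic cell and lymphoid progenitors, had 183, 184 and 245 counts in the sorafenib libraries, against 65, 92 and 88 counts in the control libraries. As scaled levels these were 4.71, 4.80 and 6.25 CPM with sorafenib, against 1.74, 2.67 and 2.34 CPM in controls. Every sorafenib library lay above every control library, and sorafenib replicate 3 was the highest. The means were 5.25 ± 0.867 CPM with sorafenib and 2.25 ± 0.471 CPM in controls (SD, n = 3 each), a 2.33-fold higher level with sorafenib (95% interval 1.70 to 3.20). The log2 fold change was 1.22 ± 0.21 (SE) with an adjusted p of 0.002448 in edgeR's test. Flt3 stayed higher and called in each of 18 alternative analyses, with an adjusted p of at most 0.02475.

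Fgfr1, a receptor for fibroblast growth factors, went the other way. It had 175, 162 and 181 counts in the sorafenib libraries, against 254, 289 and 285 counts in the control libraries. The scaled levels were 4.50, 4.22 and 4.62 CPM with sorafenib and 6.81, 8.39 and 7.59 CPM in controls, again without overlap, and the sorafenib libraries were the more tightly grouped. The means were 4.45 ± 0.204 CPM with sorafenib and 7.60 ± 0.791 CPM in controls (SD, n = 3 each), which made Fgfr1 1.71-fold lower with sorafenib. As a ratio of sorafenib to control this was 0.586 (95% interval 0.475 to 0.723), a log2 fold change of -0.77 ± 0.14 with an adjusted p of 0.00335 in edgeR's test. Fgfr1 also kept its direction and its call in each of the 18 alternatives.

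Kit, the receptor for stem cell factor, differed little between the groups. It had 707, 701 and 759 counts in the sorafenib libraries, against 623, 618 and 676 counts in the control libraries, with means of 18.6 ± 0.658 CPM with sorafenib and 17.5 ± 0.739 CPM in controls (SD, n = 3 each). The sorafenib libraries were all above the controls, in counts and in CPM, by a small margin, and 36.3% of all tested genes had groups that did not overlap. The ratio of the means was 1.06 (95% interval 0.929 to 1.21; edgeR adjusted p = 0.5586). The interval spans a ratio of 1, so the direction of any difference in Kit was not resolved.

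Start-site sequence is shown for Flt3, the receptor that rose, and for Kit, its family member that did not pass the test. The RefSeq promoter table (GRCm38.p6) matched 6 of the 10 receptors: Flt1, Flt3, Kdr, Kit, Pdgfra and Ddr1. Both stretches are the 250 bases before the annotated start, 5′ to 3′ on the gene's strand, with the 50 bases next to the start in capitals. Flt3 is at chr5:147400490-147400739 on the minus strand and Kit at chr5:75574737-75574986 on the plus strand, in GRCm38.p6.
Flt3: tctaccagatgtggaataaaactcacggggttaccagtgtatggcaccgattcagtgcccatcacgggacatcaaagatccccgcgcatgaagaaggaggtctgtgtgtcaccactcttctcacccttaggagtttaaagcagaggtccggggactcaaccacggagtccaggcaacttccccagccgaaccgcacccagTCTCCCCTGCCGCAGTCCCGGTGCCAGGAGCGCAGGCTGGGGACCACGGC
Kit: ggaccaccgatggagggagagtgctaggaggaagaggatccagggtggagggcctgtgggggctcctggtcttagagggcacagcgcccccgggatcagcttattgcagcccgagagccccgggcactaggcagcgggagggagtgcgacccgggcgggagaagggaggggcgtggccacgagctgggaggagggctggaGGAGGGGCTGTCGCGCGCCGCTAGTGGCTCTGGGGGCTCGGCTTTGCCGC
G and C made up 59.2% of the Flt3 stretch and 70.8% of the Kit stretch. The full windows, which run from 250 bases before to 50 after the start, were searched on both strands for TGANTCA (AP-1), CCGGAAG (ETS), TTCNNNGAA (STAT) and TATAAA, the core of the TATA box. None of these letters occurred in the windows of Flt3, Kit, Kdr or Pdgfra. One window of Flt1 held TATAAA and 1 of the 4 windows of Ddr1 held TGANTCA. Over all 32851 windows of the table, 7.81% held TGANTCA, 8.86% CCGGAAG, 8.30% TTCNNNGAA and 13.6% TATAAA.

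Ddr1, whose ligands are collagens, had 29.3, 32.1 and 29.4 CPM in the sorafenib libraries, against 36.0, 36.0 and 34.3 CPM in the control libraries. The groups did not overlap, and the means were 30.3 ± 1.59 CPM with sorafenib and 35.4 ± 1.03 CPM in controls (SD, n = 3 each). The ratio was 0.854 (95% interval 0.758 to 0.963), with an adjusted p of 0.07088 in edgeR's test, which missed the threshold. Without control replicate 2 Ddr1 was called, 1.16-fold lower at an adjusted p of 0.04141 in edgeR's test. The FPKM ratio of Kit to Ddr1 was 1.39, 1.27 and 1.47 in the sorafenib libraries and 1.04, 1.11 and 1.17 in the control libraries. Per length Kit thus exceeded Ddr1 in all 6, by more with sorafenib, but the change in this ratio was not tested. The order depends on the gene lengths behind the FPKM, 5182 bases for Kit and 11583 for Ddr1. In counts Ddr1 was the higher, at 1140 to 1345 per library against 618 to 759 for Kit.

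Kdr, the main signalling receptor for Vegfa, had 11, 18 and 19 counts in the sorafenib libraries, against 47, 11 and 52 counts in the control libraries. On the CPM scale these were 0.283, 0.469 and 0.485 with sorafenib and 1.26, 0.319 and 1.39 in controls. The groups overlapped because of control replicate 2, whose 11 counts (exact Poisson 95% interval 5.49 to 19.7, counting error only) lay within the sorafenib counts and far below the other control counts. With all 6 libraries the log2 fold change was -1.26 ± 0.53, with an unadjusted p of 0.03797 and an adjusted p of 0.1349 in edgeR's test. Without control replicate 2 Kdr was 3.18-fold lower with sorafenib at an adjusted p of 0.004852. In that reduced fit 31.8% of all genes were called, and the called receptors numbered 4 of 7 tested: Flt3 higher, and Fgfr1, Kdr and Ddr1 lower. The Kdr call therefore rests on that single library.

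**Figure D2:**
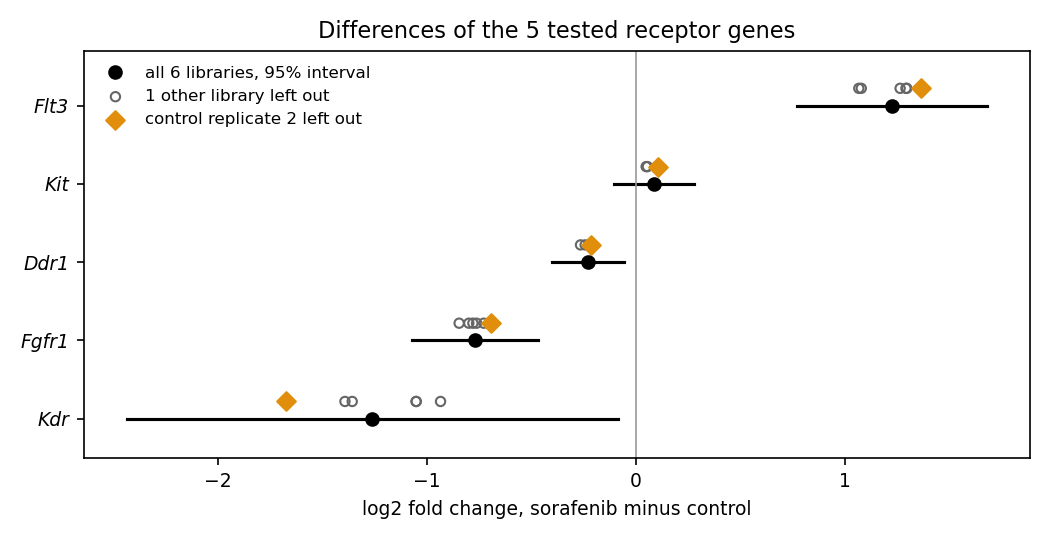
Log2 fold change of the 5 tested receptors, sorafenib minus control, as black points with unadjusted 95% intervals from edgeR's quasi-likelihood fit; open circles and orange diamonds give the value with 1 library left out. Flt3 lies above 0, Kit spans 0, and Kdr has the widest interval and moves furthest when control replicate 2 is left out (to -1.67); the intervals of Ddr1 and Kdr lie below 0, although their adjusted p missed the threshold.

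The other 5 receptors were at or near the detection limit, and no difference in them was detected. Pdgfrb, a receptor for PDGF on pericytes and fibroblasts, had 8, 19 and 6 counts with sorafenib and 6, 3 and 8 counts in controls. Ret had 7, 16 and 10 counts with sorafenib and 12, 4 and 10 in controls. Flt1, the high-affinity VEGF receptor that also acts as a decoy, had 13, 2 and 8 counts with sorafenib and 13, 3 and 1 in controls. The groups overlapped for each of these receptors. Pooled over libraries, the ratio of sorafenib to control counts, scaled for library size, was 1.82 for Pdgfrb (95% interval 0.987 to 3.49, counting error only), 1.19 for Ret (0.691 to 2.08) and 1.27 for Flt1 (0.650 to 2.53). Csf1r, the receptor that macrophages need, had 2, 0 and 1 counts with sorafenib and 0 in each control library. Pdgfra had 3, 0 and 0 counts with sorafenib and 1, 1 and 0 in controls. Both were at or under the 3-count floor in all 6 libraries, so no fold is given. When the filter was dropped and all 21233 genes were fitted, 11.9% were called, and the adjusted p of these 5 receptors was between 0.4075 and 0.908 in edgeR's test.

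Several of these receptors are neighbours in the genome. In the RefSeq gene table, whose assembly is older than the GRCm39 build of the data and so is used for order only, Pdgfra, Kit and Kdr are consecutive coding genes on mouse chromosome 5, Flt3 and Flt1 are separated by Pan3 alone on the same chromosome, and Pdgfrb and Csf1r are adjacent on chromosome 18. Neighbours differed widely in level. Kit, at 3.49 FPKM, lies between Pdgfra at 0.00240 FPKM and Kdr at 0.0896 FPKM. Flt3, at 0.608 FPKM, is next but one to Flt1 at 0.0127 FPKM. Csf1r overlaps Hmgxb3 on the opposite strand in the GENCODE annotation, and Fgfr1 overlaps the antisense gene Gm16159, which had 2 counts over all libraries. No source used here says whether the counting used strand, and without strand the reads of such pairs cannot be told apart. Flt3, Pdgfra and Ddr1 also overlap antisense genes that had no values here.

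The ligands of the receptors were then read from the same fit. Of 46 ligand symbols listed, 34 had values and 15 were tested, of which 2 rose and 4 fell, with a median log2 fold change of -0.44. The calls were 40% of the 15, against 17.9% of all tested genes. Without control replicate 2 the called ligands were 3 higher and 5 lower, in a fit that called 31.8% of all genes. Flt3l, the ligand of Flt3, moved opposite to its receptor. It had 31.0, 34.0 and 35.7 CPM in the sorafenib libraries, against 56.6, 42.9 and 54.9 CPM in the control libraries, without overlap. It was 1.53-fold lower with sorafenib (edgeR adjusted p = 0.003449). Fgf2, a ligand of Fgfr1, fell as its receptor did, with 18.9, 24.5 and 19.7 CPM in the sorafenib libraries against 40.5, 28.5 and 35.6 CPM in the control libraries, a 1.66-fold lower level (edgeR adjusted p = 0.004808). In both ligands control replicate 2 was the lowest of the controls.

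Vegfa, the ligand of Kdr and Flt1, was the most abundant of the 15 tested ligands per length, at 82.5 FPKM with sorafenib and 107 FPKM in controls. It averaged 335 ± 17.5 CPM in sorafenib-treated cells and 456 ± 31.5 CPM in control cells (SD, n = 3 each), 1.36-fold lower with sorafenib (edgeR adjusted p = 0.00367). Vegfb, which binds Flt1, averaged 23.5 ± 1.26 CPM with sorafenib and 26.6 ± 1.40 CPM in controls and did not pass (adjusted p = 0.1876, edgeR). Placental growth factor, Pgf, also a Flt1 ligand, was 2.35-fold lower (edgeR adjusted p = 0.03299), but it lost its call in 6 of the 15 alternatives that tested it. Nrp1, a coreceptor that presents VEGF to Kdr, rose, with 11.3, 9.39 and 10.1 CPM in the sorafenib libraries against 5.44, 4.50 and 4.71 CPM in the control libraries. That was 2.10-fold higher (edgeR adjusted p = 0.0004185). Nrp2 did not pass the test (edgeR adjusted p = 0.6833).

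Csf1, the ligand of Csf1r, rose with sorafenib. It had 11.0, 10.2 and 9.72 CPM with sorafenib and 3.83, 4.06 and 3.62 CPM in controls, a 2.68-fold higher level (edgeR adjusted p = 5.111e-05). Its receptor, by contrast, had at most 2 counts in any library. Pdgfb, which binds both PDGF receptors, averaged 88.4 ± 5.66 CPM with sorafenib and 70.6 ± 2.49 CPM in controls and was 1.25-fold higher (edgeR adjusted p = 0.01152). That call was lost without sorafenib replicate 1 (adjusted p = 0.07335, edgeR) and without sorafenib replicate 3 (adjusted p = 0.06515, edgeR). Kitl, the ligand of Kit, had 1 count in each sorafenib library, against 8, 0 and 2 counts in the control libraries, and was not tested.

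Gfra1, the coreceptor through which GDNF reaches Ret, fell furthest among the called ligands and coreceptors. It had 7, 10 and 1 counts in the sorafenib libraries, against 42, 79 and 48 counts in the control libraries. The means were 0.155 ± 0.120 CPM with sorafenib and 1.57 ± 0.634 CPM in controls (SD, n = 3 each), 9.89-fold lower with sorafenib, with a log2 fold change of -3.31 ± 0.58 and an edgeR adjusted p of 0.003158. Ret itself was not called. Of the 10 coreceptor symbols, 8 had values and 4 were tested, and Nrp1 and Gfra1 were the called ones. That is 50% of the 4, against 17.9% of all tested genes. Among the collagens, ligands of Ddr1, Col5a1 was the most abundant of the tested ones per length, with CPM levels of 3.83 ± 0.617 with sorafenib and 5.58 ± 1.31 in controls, and did not pass (adjusted p = 0.09421, edgeR).

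**Figure D3:**
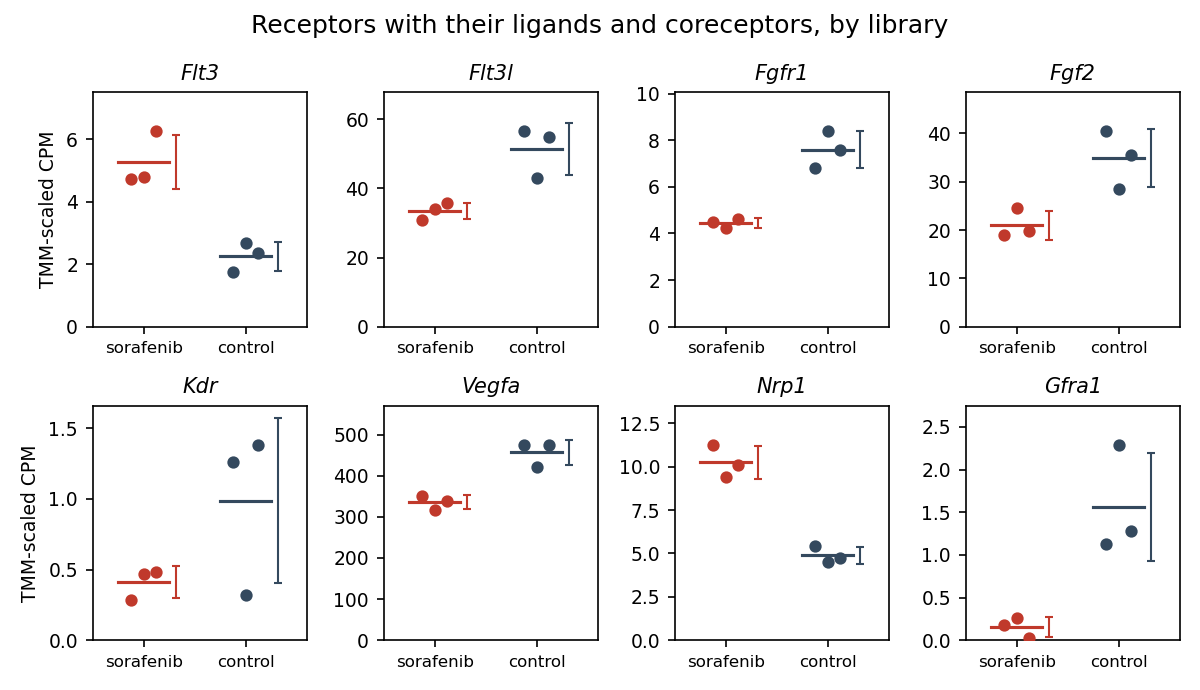
Levels of Flt3, Fgfr1 and Kdr beside those of ligands and coreceptors, in TMM-scaled CPM from 0, 1 point per library, with a bar at the mean and an SD to its right, sorafenib left of control. Flt3l, Fgf2, Vegfa and Gfra1 sit lower and Nrp1 higher in every sorafenib library than in any control library.

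For comparison with the 10, the rest of the receptor tyrosine kinase family was taken as a list of 48 symbols, of which 38 had values, 18 were tested and 20 did not pass the filter. Of the 18, 3 rose and 5 fell, which is 44.4%, against 17.9% of all tested genes, with a median log2 fold change of -0.22. The difference between this share and the 2 of 5 among the listed receptors was not tested. Axl, a receptor for Gas6 that takes part in the clearance of dying cells, rose to 66.4 ± 2.05 CPM with sorafenib, against 44.8 ± 4.19 CPM in controls (SD, n = 3 each; edgeR adjusted p = 0.001106). At 12.6 FPKM with sorafenib and 8.07 FPKM in controls it was above Kit. So were 3 receptors that were not called. With sorafenib and in controls, Lmtk2 had 7.26 and 6.09 FPKM, Igf1r 6.56 and 5.63, and Insr 5.76 and 6.85. Epha2, an ephrin receptor, was 1.89-fold higher, and Tyro3, related to Axl, was 1.32-fold higher but lost its call in 5 alternatives. Ntrk3, the receptor for neurotrophin 3, was 2.84-fold lower, and lost its call in 2 of the 16 alternatives that tested it. Ephb2, another ephrin receptor, was 1.53-fold lower and lost its call in 4. Insrr, a receptor related to the insulin receptor, was 1.78-fold lower and lost its call in 6. Ddr2 was also lower, but not when the filter was dropped (adjusted p = 0.09685, edgeR). Axl and Epha2 kept their calls in all 18 alternatives. The called members of this wider family numbered 4 without sorafenib replicate 1, 5 without sorafenib replicate 3, 4 without control replicate 3 and 10 without control replicate 2. The shares called over all genes in these fits were 9.51%, 9.15%, 11.7% and 31.8%.

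**Figure D4:**
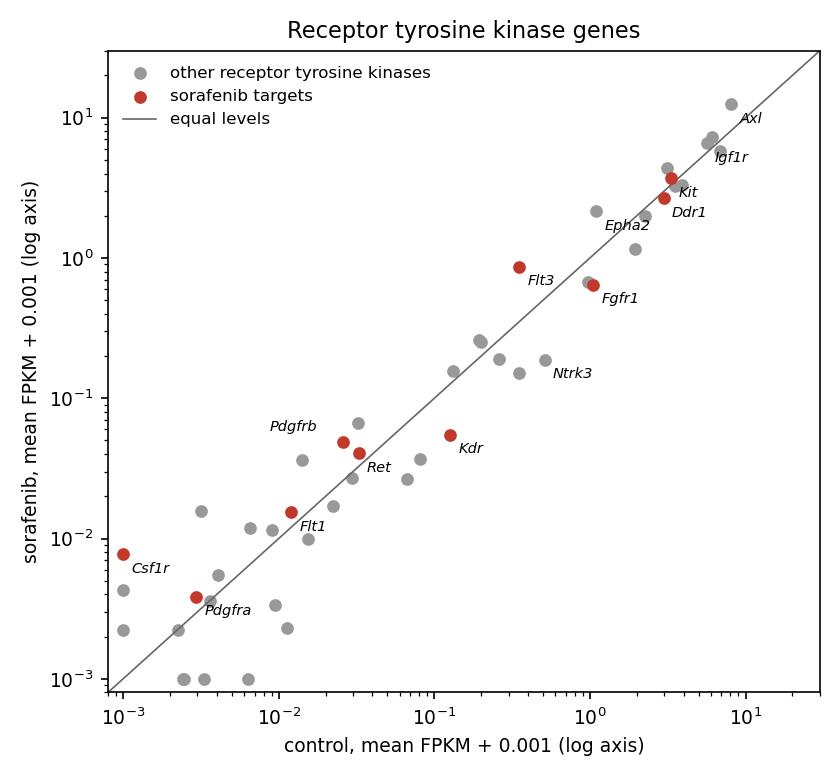
Mean FPKM in sorafenib libraries (vertical) against control libraries (horizontal), each plus 0.001 on log axes, for the 10 receptors in red and 38 other receptor tyrosine kinases in grey, with the line of equal levels. Flt3 lies above the line and Fgfr1 and Kdr below it, and the grey points lie on both sides. Csf1r and Pdgfrb also lie above the line, on totals of only 3 and 50 counts. Kdr, Csf1r and Pdgfrb were not called as different.

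Downstream of the receptors, 37 of 38 adaptors and early signalling proteins with values were tested, and 2 rose and 4 fell, with a median log2 fold change of 0.02. The calls were 16.2% of the 37, close to the 17.9% called over all tested genes, so the count does not set the adaptors apart. The called ones were Plcg2 (1.68-fold higher) and Grb10 (2.05-fold higher), and Gab2 (1.55-fold lower), Dok2 (1.35-fold lower), Sh2b2 (1.65-fold lower) and Gab1 (3.17-fold lower). Gab1 and Gab2 are docking proteins that recruit PI3-kinase, and Plcg2 is a phospholipase C gamma. Plcg2 and Gab2 kept their calls in all 18 alternatives, whereas Dok2 lost its call in 4 of the 18 and Sh2b2 in 2. Gab1 and Grb10 were tested in fewer, and lost their calls in 5 of 15 and 5 of 16. The adaptor count depended on the libraries and the scaling: it was 6 higher and 6 lower without control replicate 2, 1 higher and 2 lower without sorafenib replicate 3, and 7 higher and 4 lower under scaling by total counts. The shares called over all genes in these fits were 31.8%, 9.15% and 17.5%. Of 15 tested genes for receptor turnover and feedback, 2 rose and 5 fell, which is 46.7%, against 17.9% of all tested genes. Ptpn6, the phosphatase SHP-1, was 1.43-fold higher and Lrig1, which promotes receptor degradation, was 1.42-fold higher. Errfi1, an inhibitor of EGF receptor family kinases, was 1.41-fold lower, and the receptor phosphatase Ptprk was 2.66-fold lower. These 4 kept their calls in all 18 alternatives. Ptpn2 was 1.26-fold lower but lost its call in 3 alternatives, and Ptprj was 1.33-fold lower but lost its call in 9, with an adjusted p of up to 0.2551. Cblb, a ubiquitin ligase, was also lower. The calls in this group numbered 4, in place of 7, without sorafenib replicate 2 and likewise without sorafenib replicate 3. Those fits called 11.4% and 9.15% of all genes.

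The genes whose pattern over the 6 libraries was most like each tested receptor were found by the root mean square difference of log2 CPM, each gene centred on its own mean. For Flt3 they were Cd79b (0.144), Glipr1 (0.151) and Irak3 (0.154), where the median over all genes was 0.667. For Fgfr1 they were Gja1 (0.0430), Bnip3l-ps (0.0448) and Aplp1 (0.0460). For Kit they were Rrm1, Hspa13 and Cacul1, for Ddr1 Pank2, Tsnax and B3galt6, and for Kdr Islr2, Abca17 and Scrt1. The likeness for Kdr was looser, at 0.211 to 0.297, than for Kit at 0.0169 to 0.0182. The median over all genes was also larger for Kdr, at 0.846, than for Kit, at 0.185. The search used the same 6 libraries as the test, so it returns genes with a like difference between the groups. The genes found for Flt3 had log2 fold changes of 1.24, 1.18 and 1.21, against 1.22 for Flt3. Such likeness is no separate evidence of a link.

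Markers of other cells that carry these receptors were read beside them. Over all tested genes 17.9% were called, the share to set beside each count of called markers below. For Flt3, 7 of the 8 tested B cell markers rose and 1, Ebf1, fell; 10 of the list had values. The list summed to 39.0 to 41.2 CPM with sorafenib, against 28.0 to 36.2 CPM in controls, and without Ebf1 to 33.1 to 35.7 CPM with sorafenib, against 8.25 to 17.6 CPM in controls. Cd79b averaged 13.9 ± 1.22 CPM with sorafenib and 5.88 ± 1.96 CPM in controls, whereas Ms4a1 had 1, 2 and 2 counts with sorafenib and 0, 1 and 0 in controls. Of 5 tested dendritic cell markers 2 rose (Wdfy4, Zbtb46) and 2 fell (Cst3, Batf3), with sums of 89.1 to 92.0 CPM with sorafenib against 104 to 132 CPM in controls. Without Cst3 the groups overlapped, at 39.6 to 42.4 CPM with sorafenib and 42.2 to 51.3 CPM in controls. Blood progenitor markers summed to 6.52 to 7.53 CPM with sorafenib against 22.9 to 24.4 CPM in controls. Of the 4 tested, Cd93 fell, and it carried the difference: the other 6 genes summed to 5.34 to 6.43 CPM with sorafenib and 6.05 to 7.34 CPM in controls. Cd34 had at most 2 counts in any library. Others of the list had more: Procr 134 to 185 counts, Gata1 43 to 70 and Hlf 8 to 30, and none of them was called. The part of these cells in the Flt3 result was not tested.

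For Kit, 6 of 13 mast cell and basophil markers had values, and Mcpt4, Mcpt8, Cma1 and Gata2 had at most 3 counts in any library. Hdc, of the same list, had 27 to 54 counts. The list summed to 0.860 to 1.30 CPM with sorafenib and 1.15 to 1.57 CPM in controls. Its single tested marker was not called by edgeR, and the count was 0 also at an unadjusted p under 0.05, by DESeq2 and by limma-voom. For Csf1r, macrophage and monocyte markers summed to 7.63 to 9.37 CPM with sorafenib and 6.38 to 9.69 CPM in controls. Of the 4 tested, 0 were called by edgeR, 2 had an unadjusted p under 0.05, and DESeq2 and limma-voom each called 1. For Kdr and Flt1, endothelial markers summed to 51.8 to 56.8 CPM with sorafenib and 70.1 to 71.2 CPM in controls, with Eng higher and Pecam1 lower among 4 tested. Without Pecam1 the order turned, at 23.9 to 29.8 CPM with sorafenib and 19.4 to 20.4 CPM in controls. Of this list, Cdh5, Vwf, Emcn and Tie1 had at most 3 counts in any library. Esam had 3 to 22 counts, Erg 7 to 28 and Egfl7 182 to 277. For the PDGF receptors, fibroblast and mural markers summed to 46.7 to 51.7 CPM with sorafenib and 58.1 to 62.2 CPM in controls, with Pdpn and Lum lower among 5 tested. Without Pdpn the groups overlapped, at 3.01 to 3.35 CPM with sorafenib and 2.67 to 4.08 CPM in controls. Dcn, Acta2, Rgs5, Cspg4 and Col1a2 had at most 3 counts in any library. Others of the list had more, among them Fbln1 (7 to 55 counts), Col1a1 (12 to 40) and Tagln (24 to 39). Neutrophil markers, 2 of 3 tested lower, summed to 2.58 to 2.96 CPM with sorafenib and 9.38 to 11.3 CPM in controls. Epithelial markers, 1 higher and 2 lower of 4 tested, summed to 5.58 to 7.75 CPM with sorafenib and 6.75 to 9.75 CPM in controls. Without Cldn4, the higher one, they did not overlap, at 2.27 to 2.65 CPM with sorafenib and 5.39 to 8.21 CPM in controls. Their part in the receptor values was not tested.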

How the data were processed

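RNA from 6 libraries of mouse Th9 cells was measured by RNA-seq, grouped by sample titles into sorafenib (n = 3) and control (n = 3). A table of raw counts and one of FPKM were deposited by the authors. Each deposited FPKM was the count divided by library total and gene length, to within 4.83e-06 percent for genes with 50 counts or more. The build was GRCm39 and the tools named were HISAT2, fastp, HTSeq, DESeq2 and R 3.2.0, per the submitters' processing notes. What each did, the strand setting and the handling of multiply mapped reads are not given in those sources.

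Counts were filtered with filterByExpr, which left 13255 of 21233 genes, scaled with TMM and tested in edgeR 4.0.16 (R 4.3.3; quasi-likelihood F test, robust, group only, 4 residual degrees of freedom, biological coefficient of variation 10.9%). Adjustment was by Benjamini-Hochberg across every tested gene, two-sided, at 0.05. Log2 fold changes are sorafenib minus control, and standard errors came from the F statistic. Poisson and ratio intervals are exact at 95% and cover counting error only. The fit was tested on simulated data.

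The members, gene lists and tests were chosen with earlier results of these data known. Named genes are the 10 members, up to 6 called genes with the smallest adjusted p from each pathway list, the 3 nearest patterns of each tested member, Il9, and the defining or most abundant genes of each marker list. Vegfb, Nrp2, Kitl, Col5a1, Cblb, Ddr2, and the called B cell, dendritic cell, progenitor and stromal markers were named after their values were seen. So were Hdc, Procr, Gata1, Hlf, Esam, Erg, Egfl7, Fbln1, Col1a1, Tagln, Cldn4, Lmtk2, Igf1r and Insr. One called gene is not reported here. No replicates agreed within sampling noise. Alternatives were DESeq2 1.42.0, limma-voom and limma 3.58.1 on log2(FPKM + 1) and log2(FPKM + 0.1), each without a filter and with a mean FPKM of at least 0.5, other scalings and count filters, a replicate block, a threshold of 0.01 and each library left out. Marker sums without the gene that differed most were added after seeing the data.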

Additional observations from a re-analysis of the deposited data

How the results depend on the processing

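Flt3 stayed called as higher and Fgfr1 as lower in each of the 18 alternatives, and no direction reversed among the tested receptors. Kit, never called, had adjusted p of 0.2299 to 0.8263. The called receptors numbered 2 to 4 with 1 library left out, 4 without control replicate 2 and 2 otherwise. All genes called, 2378 in the analysis reported, numbered 1423 with limma on unfiltered log2(FPKM + 1), 1546 on unfiltered log2(FPKM + 0.1) and 1227 at an adjusted p under 0.01, and 1243 to 4325 with 1 library left out (4325 without control replicate 2, 1294, 1549 and 1243 without sorafenib replicate 1, 2 or 3). Under total counts 1496 genes were higher and 826 lower, against 1128 higher and 1250 lower with TMM, and the median log2 fold change of all genes moved by at most 0.08. Other receptor tyrosine kinases called, 8 as reported, numbered 2 on unfiltered FPKM with either pseudocount, 3 at a mean FPKM of at least 0.5, 4 at an adjusted p under 0.01, and 4 to 10 with 1 library left out. The cause was not tested. The Vegfa, Flt3l and Fgf2 calls were lost on unfiltered FPKM, with adjusted p up to 0.07709, 0.09924 and 0.1143. A replicate block gave 2139 genes, 2 receptors and 6 others of the family. Deviations of same-numbered samples from their group means had correlations of -0.06, 0.15 and 0.10. Replicates 2 and 3 of each group, but not replicate 1, correlated best with their own number. Deviations within a group of 3 depend on each other, so these values cannot show whether samples were paired. Pdgfrb, Ret, Flt1, Csf1r and Pdgfra had few counts and were not called in any fit that tested them.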
